A study of Oryza sativa with 18 samples.

Results

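In rice crown root tips, 98 of the 64687 genes listed lost most of their transcript after jasmonate (JA) in WT and oscoi1ab plants and changed little in oscoi2 plants. They were chosen from CPM values (a gene's count scaled to a common library total). A member had a mean of at least 5 CPM in mock-treated WT plants, a log2 ratio of JA to mock of at most -2 in WT and in oscoi1ab plants, and a ratio of at least -0.5 in oscoi2 plants, with 0.5 CPM added to each mean. The limits in WT and oscoi1ab plants alone were passed by 446 genes, of which the 98 members are 22% and the other 348 were still lower after JA in oscoi2 plants. All 3 JA responses were thus used to choose the members, so their values and the counts of calls in those contrasts describe the choice and are no test of it.

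The plants were Oryza sativa of the cultivar Kitaake. Besides WT plants, oscoi1ab plants carried edits of both OsCOI1 genes, OsCOI1a and OsCOI1b, and oscoi2 plants an edited OsCOI2. All were kept for 6 h in liquid medium with 5 µM JA or with DMSO as the mock treatment. Each of the 6 combinations has 3 libraries, 18 in all, and each sample pooled tips of about 1 cm from 20 to 24 plants. Each edited genotype is a single homozygous T3 line. A difference between oscoi2 and the other lines is therefore a difference of this line.

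COI proteins are the F-box receptors of JA-isoleucine. The hormone brings them together with JAZ repressors, which are then degraded, so that transcription factors (TFs) held by JAZ proteins are released. Falls of transcript after JA are a separate side of this response and include growth and photosynthesis genes. Roots express photosynthesis genes weakly. GLK factors and GATA factors of the GNC type are known in Arabidopsis to promote chloroplast development.

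The sites edited in OsCOI2, on chromosome 3, are shown because the choice of members rests on this line. The letters in capitals are the PAM next to each target, read 5′ to 3′, and the study's table places the first target on the reverse and the second on the forward strand. The line carries a T deletion at the first site and a longer deletion at the second.
oscoi2 gRNA1 site: ttcgacaattgcgcacaaggAGG
oscoi2 gRNA2 site: atattacaagactttgccggTGG

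Library totals lay between 99657931 and 113672521 estimated counts. OsCOI1a was at 15.4 to 27.99 CPM in the oscoi1ab mock libraries against 78.4 to 121 CPM in WT mock, and OsCOI2 was at 24.3 to 28.2 CPM in oscoi2 mock against 40.2 to 58.3 CPM in WT mock, without overlap. OsCOI1b was at 116.5 to 134 CPM in oscoi1ab mock and 137 to 159 CPM in WT mock, a smaller gap. The edits are deletions that need not change a transcript's level, so these values check the labels only in part. The root tip markers QHB, CRL1, OsSCR1, OsSHR1, RCc3 and OsLsi1 were present in every library. Their summed level, most of it from RCc3 and OsLsi1, was 4637 to 5211 CPM in WT mock and 1846 to 2505 CPM in WT JA. It was 5453 to 6326 and 1995 to 2616 CPM in oscoi1ab, and 5413 to 6653 and 3958 to 4577 CPM in oscoi2 plants. Log2 ratios of JA to mock in WT, oscoi1ab and oscoi2 plants were -1.27, -1.46 and -0.69 for RCc3 and -0.99, -1.29 and -0.19 for OsLsi1. They were -0.48, -0.34 and -0.26 for QHB and -0.25, -0.72 and -0.50 for CRL1. For OsSCR1 they were -0.49, -0.59 and -0.53, and for OsSHR1 -0.47, -0.59 and -0.33. The sum of 4 root hair markers was 49.3 to 74.1 CPM in WT mock and 11.4 to 37.6 CPM in WT JA, 48.6 to 52.7 and 6.76 to 11.3 CPM in oscoi1ab, and 73.7 to 96.7 and 20.1 to 30.2 CPM in oscoi2 plants. Under mock neither sum was lower in oscoi2 than in WT plants, but single root tip markers went both ways. Their log2 ratios of oscoi2 to WT under mock were 0.51 for RCc3 and 0.10 for CRL1. They were -0.15 for OsLsi1, -0.36 for QHB, -0.06 for OsSCR1 and -0.11 for OsSHR1. OsLsi1 was at 1562 to 1587 CPM in oscoi2 mock and 1641 to 1910 CPM in WT mock. The part of these markers in the JA responses was not tested. Of the shoot markers, OSH1 was at 0 in all 18 libraries and OsRBCS2 reached at most 0.62 CPM. OsRBCS3, which is itself a member, and OsRBCS4 were present.

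Under mock treatment, without JA, the members were already low in oscoi2 plants. Their median log2 ratio of oscoi2 to WT under mock was -0.92, with 94 of 98 below 0, where the median of all 17907 genes of at least 5 CPM in WT mock was -0.04. In oscoi1ab plants the same median was 0.15, and 15 members lay below 0. The 348 genes still lower after JA in oscoi2 plants had a median of -0.16. Of the members, 41 lay at or under -1, 57 between -1 and 1 and none above, while 288 of the 17907 genes lay at or under -1. Expressed as a share of the fall after JA in WT plants on the log2 scale, the mock level of oscoi2 plants was 34.7% of the way down at the median. The rule set no limit on this ratio, but it shares libraries with it, and a low mock level in oscoi2 plants makes the limit of -0.5 easier to pass.

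**Figure D1:**
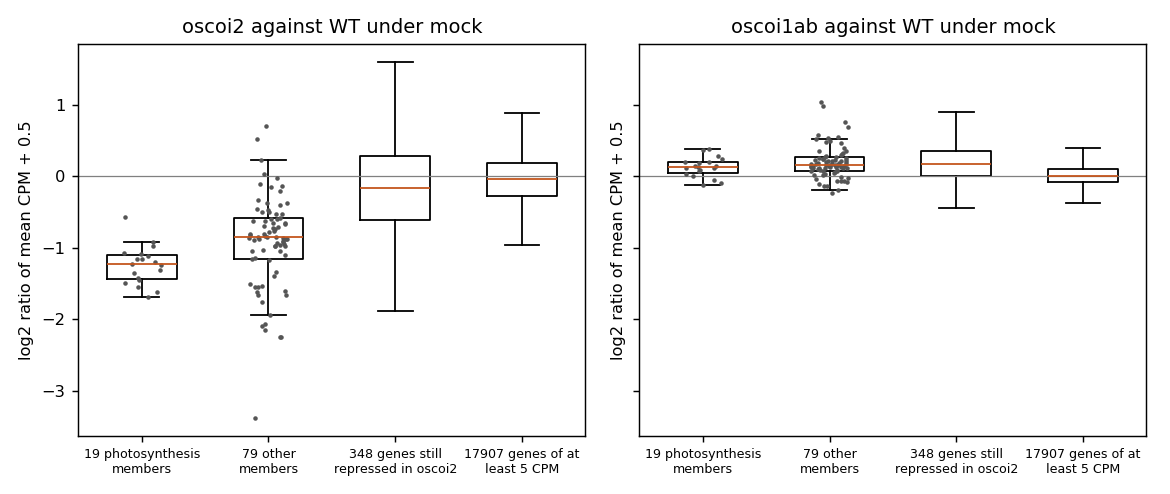
Log2 ratio of mean CPM + 0.5 of each edited line to WT plants under mock, as boxes (quartiles, median line, whiskers to the last value within 1.5 times the box height) for the members in the photosynthesis list, the other members, the genes still lower after JA in oscoi2 plants and all genes of at least 5 CPM; points are single members. In oscoi2 plants 94 of the 98 members lie below 0, with medians of -1.22 and -0.85, and in oscoi1ab plants they lie around 0.13 and 0.16.

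Under mock, in the edgeR quasi-likelihood fit of all 30907 genes tested, 1 member was lower in oscoi2 than in WT plants with an FDR below 0.01 and a minimum log2FC of 1 in size, where 0.155% of all genes tested were called lower. None was called higher, where 0.22% of all genes were. At an unadjusted p under 0.05, 65 members were lower and 1 was higher, beside 10.6% and 12.1% of all genes. DESeq2 called 12 members lower, beside 0.654% of all genes. Against oscoi1ab plants 9 members were called lower, with 0.398% of all genes. With the replicate number as a block, edgeR called 23 members lower than in WT plants, beside 157 of all genes tested. It called 34 lower than in oscoi1ab plants, beside 275. The 3 oscoi2 mock libraries lay all below the 3 WT mock libraries for 66 members, where 14.3% of all genes did so. They lay all below those of oscoi1ab for 87, where 18.6% did. The rule favours this direction, so these counts and the calls above are no independent test of it. Between oscoi1ab and WT plants under mock edgeR called 0 members, with 2 higher at an unadjusted p under 0.05 (2.13% of all genes) and 0 by DESeq2, and 0.162% of all genes were called either way. Calls under mock in the fit without a block depended on the libraries. The count against WT plants was 0 without any 1 of the 3 WT mock libraries or oscoi2 mock libraries 1 or 3, and it was 7 without oscoi2 mock library 2, 2 without oscoi1ab JA library 2 and 2 without oscoi2 JA library 2. The count against oscoi1ab plants was 0 or 1 without any 1 oscoi1ab mock library or oscoi2 mock library 1 or 3.

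After JA the order was reversed, and the members were higher in oscoi2 than in the other lines. The median log2 ratio of oscoi2 to WT plants after JA was 1.46 over the members, against 0.16 over all genes of at least 5 CPM, and it was 0.09 for oscoi1ab against WT. The fit called 45 members higher in oscoi2 than in WT plants and none lower, with 1.71% of all genes called higher and 2.22% lower. It also called 45 higher than in oscoi1ab plants, with 2.22% of all genes, and 41 members were called in both. The count against oscoi1ab plants was 29 without oscoi1ab JA library 1. The libraries did not overlap for 79 members against WT, where 24.9% of all genes lay all higher. The rule, which used both JA levels, favours this direction. Calls and FDRs of single members in these contrasts, here and below, are therefore no independent test of it. Between oscoi1ab and WT plants after JA edgeR called 0 members, with 1 lower and 2 higher at an unadjusted p under 0.05 (2.83% and 2.77% of all genes) and 0 by DESeq2, and 0.162% of all genes were called either way. The level that oscoi2 plants held was intermediate, since the median log2 ratio of oscoi2 JA to WT mock was -1.19.

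The contrasts that chose the members are given as a description. In them edgeR called 91 lower after JA in WT plants (6.56% of all genes), 95 in oscoi1ab plants (8.15%) and 0 in oscoi2 plants (1.47% lower and 2.99% higher), where 2 were lower at an unadjusted p under 0.05, beside 14.4% of all genes, and DESeq2 called 0. The oscoi2 JA libraries lay all below the oscoi2 mock libraries for 12 members, where 25.8% of all genes did so. The limits of the rule fix a higher JA response in oscoi2 than in the other lines for every member. How many of these differences passed the edgeR limits is therefore no evidence of a difference, with 53 against WT (1.31% of all genes) and 60 against oscoi1ab plants (1.52%). Median ratios were -2.53, -2.72 and -0.29. On column totals the median of all genes of at least 5 CPM was itself -0.35 in WT plants, -0.33 in oscoi1ab plants and -0.13 in oscoi2 plants. TMM scaling in the fit removed most of this shift, leaving a median log2FC over all genes tested of -0.05 in WT plants, where that of the members was -2.44. On the TMM scale the rule took 82 genes, of which 64 were members.

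The rule was also applied to the libraries of 2 replicate numbers, and the same ratios were read in the number left out. It chose 99, 94 and 104 genes with numbers 1, 2 and 3 left out. In the left-out libraries their median ratio of JA to mock in oscoi2 plants was -0.21, -0.36 and -0.36. The genes chosen in the same way as still lower after JA had -1.12, -1.30 and -1.21. All 3 limits on the ratios were met again by 44, 52 and 48 of the genes chosen, so that membership of a single gene was less stable than the pattern. Under mock, 93 of 99, 88 of 94 and 99 of 104 lay below WT in the left-out oscoi2 library, with medians of -0.94, -0.67 and -0.90 beside -0.06, 0.02 and -0.07 for all genes.

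**Figure D2:**
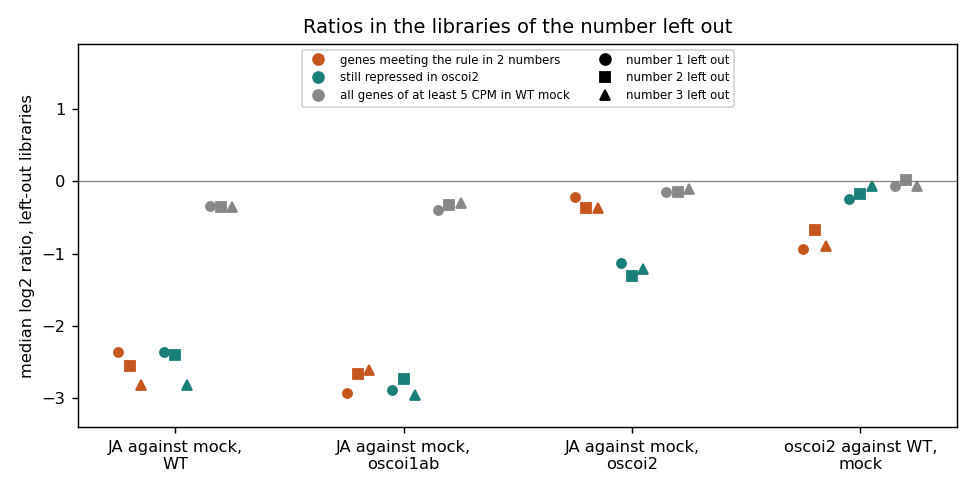
Median log2 ratios read in the libraries of the replicate number that was left out when genes were chosen, for JA against mock in each line and for oscoi2 against WT plants under mock; colours are the sets of genes and symbols the number left out. Genes meeting the rule in the other 2 numbers stay between -0.21 and -0.36 for JA against mock in oscoi2 plants and between -0.67 and -0.94 for the mock comparison.

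Photosynthesis genes were the largest named group. The study's list holds 41 genes, which the study identified as lower after JA in WT plants of these samples, and gave 19 members. The list thus asked for the same fall in WT plants as the rule. Members outside the lists were not classed by product, so the size of this group is no independent finding. Of the other 22, 11 missed the oscoi2 limit alone, among them OsLhcb1a with a ratio of JA to mock of -2.89 in oscoi2 plants and OsLhcb5 with -0.57. The remaining 11 missed the minimum level, the limits in WT and oscoi1ab plants, or several limits. In oscoi2 plants under mock, 16 of the 19 lay at or under -1 against WT plants, as did 25 of the other 79 members. No call was made under mock for these 19 by edgeR without a replicate block, with 13 lower at an unadjusted p under 0.05 and 1 call by DESeq2. With the replicate number as a block, edgeR called 9 of them lower, beside 157 of all 30907 genes tested. The 22 listed genes that are no members had a median log2FC of -1.09 in this comparison, beside -1.18 for the 19, so a low mock level in oscoi2 plants was shared by the rest of the list.

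The 6 members of photosystem I, which passes electrons to ferredoxin, were OsPsaD, OsPsaE, OsPsaH, OsPsaK, OsPsaL and OsPS1-F, and their mock ratios of oscoi2 to WT ran from -1.68 to -1.08. OsPsaL was at 26.6, 72.4 and 56.8 CPM in WT mock, at 3.001, 8.09 and 7.40 CPM in WT JA, at 6.33, 23.8 and 17.3 CPM in oscoi2 mock and at 6.22, 20.5 and 11.8 CPM in oscoi2 JA. Its oscoi2 mock libraries lay below every WT mock library, and JA left them in the same range.

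Photosystem II, which splits water, gave OsPsbP-4, OsPsbQ-2, OsPsbW, OsPsbX-2, OsPsbY and OsPsb, with mock ratios from -1.62 to -0.56. OsPsbQ-2, a subunit next to the site of water splitting, was at 75.1, 124 and 109.5 CPM in WT mock, 19.8, 28.3 and 18.8 CPM in WT JA, 34.6, 53.8 and 52.9 CPM in oscoi2 mock and 38.6, 67.2 and 56.7 CPM in oscoi2 JA. It was the member of the list whose ratio of JA to mock in oscoi2 plants was highest, at 0.20. OsPsbY and OsPsb were the 2 members of the list called higher in oscoi2 than in WT plants after JA, with log2FC of 1.81 ± 0.41 (SE, n = 3 per group, edgeR FDR 0.00732) and 1.65 ± 0.27 (edgeR FDR 0.000637). OsPsbY lost its call without WT JA library 1 or 3 or oscoi2 JA library 2 or 3. With the replicate number as a block, 14 members of the list were called higher, beside 627 of all 30907 genes tested. The rule favours this direction, so these FDRs are no independent test of it.

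The light-harvesting proteins OsLhcb2, OsLhcb3, OsLhca and OsLhca4 bind chlorophyll around the photosystems, and their mock ratios ran from -1.55 to -1.31. OsLhca4 was at 52.2, 167.6 and 147.02 CPM in WT mock, 3.64, 13.2 and 9.75 CPM in WT JA, 69.1, 179 and 136 CPM in oscoi1ab mock, 12.7, 61.5 and 49.9 CPM in oscoi2 mock and 13.1, 54.6 and 36.4 CPM in oscoi2 JA. The WT and oscoi2 mock libraries overlapped, since WT library 1 was low, and the log2FC between them was -1.52 ± 0.70 (SE, n = 3 per group, edgeR FDR 0.21). Outside the complexes, OsPETC encodes the Rieske protein of the cytochrome b6f complex, OsCRD1 a cyclase and OsGGR1 a reductase of chlorophyll synthesis. OsPETC was at 65.6, 99.98 and 83.6 CPM in WT mock and at 24.1, 45.4 and 36.6 CPM in oscoi2 mock, without overlap.

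OsRBCS3, which encodes a small subunit of Rubisco and is outside the list, had the lowest ratio of JA to mock of all members in WT plants, at -4.42. It was at 40.9, 128.7 and 104 CPM in WT mock, 1.85, 4.44 and 5.08 CPM in WT JA, 7.42, 35.9 and 17.6 CPM in oscoi2 mock and 2.87, 29.8 and 17.6 CPM in oscoi2 JA. OsRBCS4, a shoot marker that is no member, was at 6.18, 38.9 and 30.4 CPM in WT mock and 3.26, 15.3 and 7.94 CPM in oscoi2 mock. A smaller share of green cells and less transcript per cell cannot be told apart in these bulk samples.

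Replicate 1 was the lowest library of its group for the photosynthesis members in all 6 groups. Their summed level was 566, 1309 and 1061 CPM in WT mock, 712, 1420 and 1055 CPM in oscoi1ab mock and 211, 521 and 473 CPM in oscoi2 mock. After JA it was 77.1, 160 and 119 CPM in WT, 43.97, 181 and 161 CPM in oscoi1ab and 208, 454 and 350 CPM in oscoi2 plants. The highest oscoi2 mock sum, 521 CPM, was below the lowest WT sum, and every oscoi2 JA sum exceeded every WT JA and oscoi1ab JA sum. Of the 19 genes, 17 in WT mock and all 19 in oscoi2 mock were lowest in replicate 1, where 34.1% and 37.9% of the genes of at least 5 CPM were. The sum of the shoot markers that are no members was nearly all from OsRBCS4. Under mock it ran from 6.26 to 39.1 CPM in WT and from 3.26 to 15.3 CPM in oscoi2 plants, which overlapped. After JA this sum did not follow the photosynthesis members. It ran from 2.12 to 4.48 CPM in oscoi2 and from 2.59 to 4.097 CPM in WT plants, which also overlapped. The part of OsRBCS4 in the result was not tested.

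**Figure D3:**
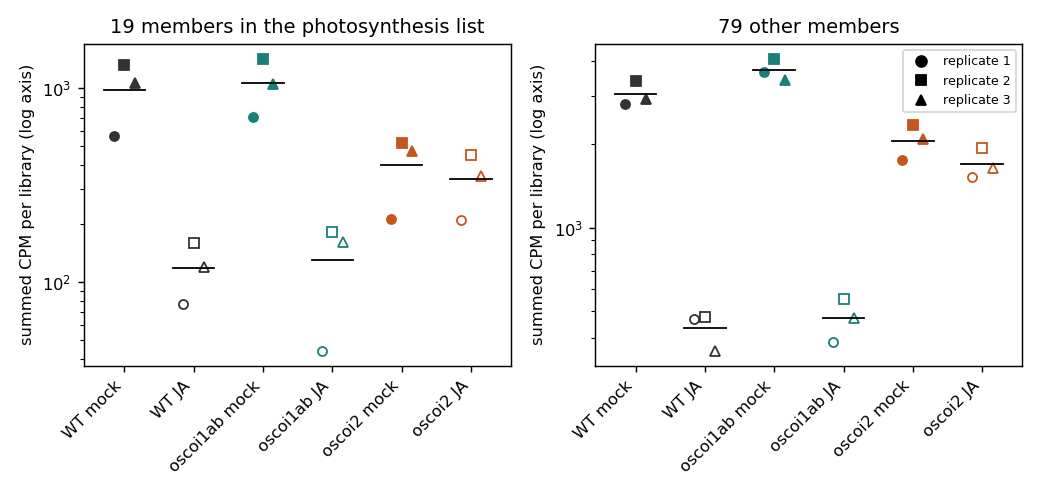
Summed CPM per library (log axis) of the 19 members in the photosynthesis list and of the 79 other members; symbols are replicate numbers, filled for mock and open for JA, and lines are group means. The oscoi2 libraries lie between the mock and the JA libraries of the other lines, and replicate 1 is the lowest of its group for the photosynthesis members.

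The TF list of 351 genes, of which 22 passed the limits in WT and oscoi1ab plants, gave 5 members, and all 5 are also in the study's list of repressed TF genes tied to OsCOI2. That list was made from these libraries and is no independent evidence of their direction. Under mock none was called against WT plants by edgeR, with all 5 lower at an unadjusted p under 0.05 and 1 call by DESeq2. With the replicate number as a block, edgeR called 2 of them, beside 157 of all 30907 genes tested called lower. OsGLK1, a factor that promotes chloroplast development, was at 31.3, 69.6 and 64.2 CPM in WT mock, 6.69, 16.0 and 13.0 CPM in WT JA, 10.2, 26.7 and 25.1 CPM in oscoi2 mock and 20.2, 33.3 and 23.6 CPM in oscoi2 JA. All oscoi2 mock libraries lay below all WT mock libraries, and its ratio of JA to mock in oscoi2 plants, 0.31, was 1 of the 5 highest among the members.

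OsGATA16, a GATA factor, was the TF member called higher in oscoi2 than in WT plants after JA, with 4.04, 4.96 and 4.81 CPM against 1.26, 1.79 and 0.67 CPM and a log2FC of 1.74 ± 0.31 (SE, n = 3 per group, edgeR FDR 0.00119). Here too the rule favours this direction. OsERF141, of the ERF family, had 20.4, 35.9 and 27.7 CPM in WT mock and 4.48, 11.5 and 7.78 CPM in oscoi2 mock. Its groups did not overlap, and its log2FC was -1.78 ± 0.36 (SE, n = 3 per group, edgeR FDR 0.0123). The B-box gene OsBBX10 and the Dof gene OsDof20 had mock ratios of oscoi2 to WT of -1.60 and -0.89.

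OsXTH12, from a family of xyloglucan endotransglucosylase/hydrolases that remodel the cell wall, was the only member among the 32 genes of the cell wall list, of which 13 passed the limits in WT and oscoi1ab plants. It was at 70.2, 52.8 and 45.9 CPM in WT mock, 8.89, 6.28 and 7.94 CPM in WT JA, 56.4, 54.4 and 62.4 CPM in oscoi2 mock and 35.4, 46.2 and 58.4 CPM in oscoi2 JA. Its mock libraries overlapped, and after JA it was higher in oscoi2 than in WT plants with a log2FC of 2.45 ± 0.29 (SE, n = 3 per group, edgeR FDR 4.66e-05). The rule favours this direction, so the FDR is no independent test of it. The lists of JA pathway (32 genes), defense (24), cell cycle (4), shikimate and phenylpropanoid pathway (34) and methylerythritol phosphate pathway and diterpene phytoalexin genes (28) gave 0 members. The limits in WT and oscoi1ab plants were passed by only 1 JA pathway gene and 2 defense genes. They were passed by 0 genes of the cell cycle, shikimate and phytoalexin lists, which could thus give no member whatever their level in oscoi2 plants.

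A few members kept a full level in oscoi2 plants rather than a low one. LOC_Os02g37480 was at 86.6, 68.5 and 47.4 CPM in WT mock, 11.5, 9.04 and 8.61 CPM in WT JA, 108, 146 and 74.6 CPM in oscoi2 mock and 138, 142 and 120 CPM in oscoi2 JA. It had the highest mock ratio of oscoi2 to WT of all members, 0.70, and its JA libraries lay far apart, with a log2FC of 3.64 ± 0.39 (SE, n = 3 per group, edgeR FDR 2.04e-05). The rule favours a higher level in oscoi2 plants after JA, so this FDR is no independent test. LOC_Os07g34570 was at 877, 631 and 484 CPM in WT mock, 139, 54.9 and 29.97 CPM in WT JA, 630, 647 and 674 CPM in oscoi2 mock and 543, 522 and 403 CPM in oscoi2 JA. Its share of counts was the largest of any member, and its mock libraries overlapped. Os08g0564400 and LOC_Os02g51970 followed with mock ratios of 0.52 and 0.23, and Os08g0564400 varied from 13.5 to 31.5 CPM within WT mock.

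OsEnS-58, annotated as a conserved hypothetical protein, was the member called lower in oscoi2 than in WT plants under mock. It was at 73.3, 76.2 and 73.6 CPM in WT mock, 11.9, 10.7 and 7.89 CPM in WT JA, 17.3, 34.2 and 17.96 CPM in oscoi2 mock and 16.5, 42.8 and 27.2 CPM in oscoi2 JA. Its WT mock libraries agreed closely, and the log2FC of -1.64 ± 0.28 (SE, n = 3 per group, edgeR FDR 0.00605) lost the call without any 1 WT mock library or oscoi2 mock library 1 or 3. LOC_Os08g39370, annotated as a sodium/sulphate symporter or citrate transporter, was at 27.2, 76.2 and 65.3 CPM in WT mock and 3.48, 19.8 and 11.3 CPM in oscoi2 mock. Its oscoi2 JA libraries, at 8.69, 15.1 and 10.1 CPM, overlapped the WT JA libraries, at 9.47, 10.8 and 8.30 CPM, so that its mock level in oscoi2 plants was already near the level that WT plants reached after JA.

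**Figure D4:**
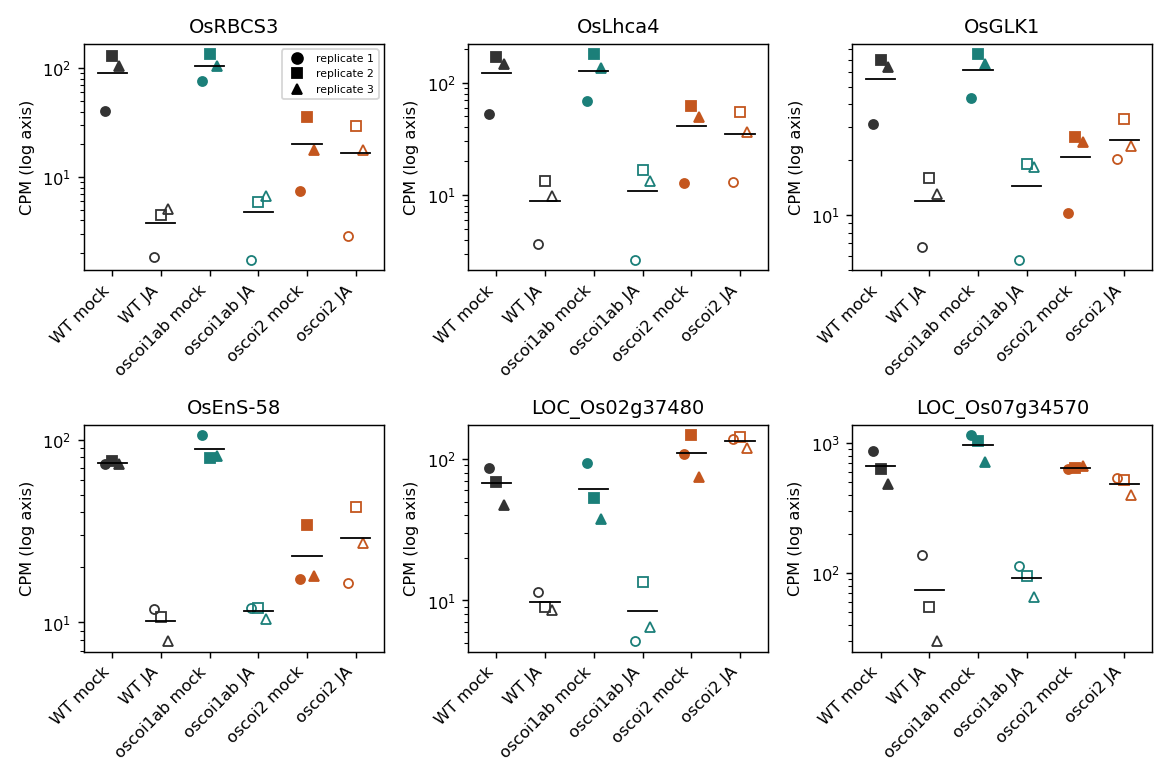
CPM per library (log axis) of 6 members by line and treatment; symbols are replicate numbers, filled for mock and open for JA, and lines are group means. OsRBCS3, OsLhca4, OsGLK1 and OsEnS-58 are lower in oscoi2 mock than in WT mock on average, while LOC_Os02g37480 and LOC_Os07g34570 are at mean mock levels of 109.8 and 650.4 CPM in oscoi2 plants, beside 67.5 and 664 CPM in WT plants.

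OsFBK16, an F-box protein annotated to the KMD family of negative regulators of cytokinin responses, is named here after its values were seen. It was at 37.3, 65.02 and 38.4 CPM in WT mock, 5.45, 10.4 and 4.77 CPM in WT JA, 9.02, 17.5 and 18.6 CPM in oscoi2 mock and 9.03, 18.3 and 11.8 CPM in oscoi2 JA. Its mock groups did not overlap, with a log2FC of -1.59 ± 0.35 (SE, n = 3 per group, edgeR FDR 0.0168). LOC_Os11g14910 had a low mock ratio of -2.08 with wide spread, from 4.11 to 29.4 CPM in WT mock and from 0.038 to 8.89 CPM in oscoi2 mock, and its groups overlapped. LOC_Os01g45110 had the second highest ratio of JA to mock in oscoi2 plants, 0.72, with 2.26, 16.2 and 14.6 CPM in oscoi2 mock and 8.31, 19.3 and 27.8 CPM in oscoi2 JA, which overlapped.

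Some members are neighbours on a chromosome. OsRBCS3 and Os12g0291066 on chromosome 12 had mock ratios of -2.14 and -2.24, and Os12g0291733, from the same stretch of identifiers, had the lowest of all, -3.38, with 3.11, 14.9 and 15.2 CPM in WT mock and 0.20, 0.80 and 0.85 CPM in oscoi2 mock. LOC_Os02g11790 and Os02g0208675 on chromosome 2 had nearly the same level in each library, such as 6.40 and 7.15 CPM in WT mock library 1. LOC_Os03g09940 with Os03g0195475 and LOC_Os07g08150 with LOC_Os07g08160 are the other pairs. Use of strand in the counting is not given in the sources used here, so reads of overlapping genes in such pairs cannot be told apart. Every chromosome held members, from 1 on chromosome 10 to 15 on chromosome 3. As a share of its genes of at least 5 CPM in WT mock, chromosome 10 had 0.111%, chromosome 3 0.61% and chromosome 7 the most, 0.95%.

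The limit of -0.5 in oscoi2 plants cut through a continuous range. Just inside it were OsGGR1 and LOC_Os07g33610, both at -0.50, with LOC_Os02g57280. Just outside were OsJAR2 at -0.50, a JA-amino acid synthetase that fell from 20.4 to 1.17 CPM in WT plants and from 7.69 to 5.27 CPM in oscoi2 plants, LOC_Os08g29370 at -0.51 and LOC_Os02g17360 at -0.52. A limit of -1 would take 222 genes and a limit of 0 only 10. Without oscoi2 mock library 1 the rule took 56 genes, 54 of them members, and without oscoi2 JA library 2 it took 62, with 58 members.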

How the data were processed

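RNA of crown root tips was sequenced by the authors in 150-bp read pairs. According to the methods and labels, FastQC, cutadapt, HISAT2 and StringTie were the tools for quality control, trimming, mapping and assembly, with gene models of MSU7 and RAP-DB. Versions are not given in the sources used here. The deposited values are estimated counts per gene, already whole and not normalized by the authors. Library totals exceed the number of read pairs, so a count is not a read pair, and no counting interval is given.

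Samples were grouped by title. CPM used column totals. Genes with a count sum of at least 180 (30907) were tested in edgeR 4.0.16 (R 4.3.3) with TMM scaling, 1 fit of 6 groups, the quasi-likelihood F test and Benjamini-Hochberg FDR, and called below an FDR of 0.01 with an absolute log2FC from 1 upwards. SE is log2FC divided by the square root of F. On simulated data for oscoi2 against WT under mock (30907 genes), 98% of genes lowered to 0.25 of their level and 38% of those lowered to 0.5 were called. Alternatives used DESeq2 1.42.0, other scalings, filters and limits, the replicate number as a block and omission of each library. Tables and figures were made with Python 3.11.15, pandas 2.3.3, numpy 2.4.6 and matplotlib 3.10.9.

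The members, lists and tests were chosen with earlier results of these data known. Named genes are members in the study's lists, those of extreme level or ratio, those beside the oscoi2 limit and chromosome neighbours. Replicate numbers did not pair oscoi2 with WT mock libraries (r of 0.482, 0.085 and -0.091 between equal numbers after removing group means, 17616 genes), so the fit without a block is reported. The study describes the samples as independent. Promoters, proteins and classes of product names were not analysed here.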

Additional observations from a re-analysis of the deposited data

Results flagged for a closer look

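The edgeR interaction contrasts, which compare the JA response between lines, called 53 of the 98 members higher in oscoi2 than in WT plants, with 1.31% of all genes tested, and 60 higher than in oscoi1ab plants, with 1.52%. The rule chose members by these same responses in the same libraries and so fixed the direction. The counts describe the choice and are no test of a difference between lines. No group has enough libraries to be searched for a single library far from the others.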

How the results depend on the processing

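The number of genes taken by the rule was 98. It was 62 with 2 CPM added to each mean, 10 with an oscoi2 limit of 0 and 222 with a limit of -1, and 56 to 132 when single libraries were left out. On the TMM scale it was 82, of which 64 were members. Members called lower in oscoi2 than in WT plants under mock numbered 1, and 10 at an FDR under 0.05, 2 without a log2FC minimum, 10 with the likelihood ratio test, 12 with DESeq2, 3 without the filter on low counts, and 0 to 7 with single libraries left out. Against oscoi1ab plants under mock they numbered 9, and 26, 18 and 22 with the FDR limit of 0.05, the likelihood ratio test and DESeq2, and 0 to 13 with single libraries left out. After JA, members called higher in oscoi2 than in oscoi1ab plants numbered 45 (687). They ranged from 29 (447 of 30779) without oscoi1ab JA library 1 to 47 (661 of 30755) without oscoi2 mock library 1. For the JA response of oscoi2 minus WT plants, 53 (404) became 84 (802) at an FDR under 0.05 and 83 (729) with the likelihood ratio test. With the replicate number as a block, 23 members (157) were called lower in oscoi2 than in WT and 34 (275) than in oscoi1ab plants under mock. After JA 69 (627) were called higher in oscoi2 than in WT plants. For the JA response of oscoi2 minus WT and minus oscoi1ab plants the calls were 88 (554) and 90 (659). The cause of these changes was not tested. Equal numbers correlated above 0.1 in all 3 pairs for WT mock with WT JA and with oscoi1ab mock, where the block gave 95 and 0 calls against 91 and 0, but not for oscoi2 with WT or oscoi1ab libraries. In 28 of 45 comparisons a library correlated best with its own number. Of the named genes, only those called for oscoi2 against WT plants under mock or after JA were followed through the settings. None changed sign, and 420 values kept their side of the threshold and 22 lost the call, all with a library left out. At these depths a simulated 2-fold fall was called for 38% of 50 genes drawn at random, so few calls under mock do not show that levels were alike. The share for the members themselves was not simulated.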
